A study of Mus musculus with 6 samples.

Results

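The nuclear factor I (NFI) genes of the mouse are Nfia, Nfib, Nfic and Nfix, 4 of the 21938 protein-coding genes considered, and they were followed through the open chromatin of beige, white and brown adipocytes in culture. Members were taken by gene name in GENCODE M21, and every ATAC-seq peak inside a gene or within 100 kb on either side was collected. The 6 lists held 239, 264, 242, 228, 206 and 196 such peaks in beige 1, beige 2, white 1, white 2, brown 1 and brown 2. Merged across libraries at an overlap of at least 1 bp, they gave 317 of the 194610 regions open in at least 1 library, with 97 at Nfia, 85 at Nfib, 63 at Nfic and 72 at Nfix.

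NFI proteins are transcription factors that bind DNA as homo- or heterodimers, through a conserved amino-terminal domain, at a palindrome whose arms read TTGGC and GCCAA. Vertebrates carry the genes as separate copies with overlapping roles in brain, lung, tooth, muscle and fat. In adipose tissue NFIA is known as a factor that shares enhancers with PPARG and C/EBP proteins and promotes the brown fat gene programme, and NFIB has been tied to adipocyte differentiation. NFIC is best known from tooth root formation and NFIX from muscle and brain stem cells.

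All cells came from wild-type C57BL/6J mice, male and 3 to 4 weeks old, as stromal vascular fraction that was grown to confluence and collected 7 days after induction. Beige and white cells came from inguinal (subcutaneous) adipose tissue and brown cells from brown adipose tissue, with 2 libraries per condition. Beige and brown cells were induced with insulin, 1 μM rosiglitazone, 1 nM T3, 5 μM dexamethasone and 0.5 mM isobutyl methylxanthine, and the first 3 of these were kept on after induction. White cells were induced with insulin, 1 μM dexamethasone and 0.5 mM isobutyl methylxanthine and then kept in insulin. Medium differs between beige and white, and tissue of origin differs between brown and the others, so brown and white cells differ in both. The paper describes the beige and white ATAC-seq libraries and no brown one, and whether all were prepared together is not stated. A difference in preparation between brown and the others could not be told apart from tissue. Stromal vascular fraction is a mixture, and a peak in bulk cells cannot tell fewer open cells from less open chromatin per cell.

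Each list gives, for a peak, the fold of the pileup at its summit over that library's own local background, and a -log10 q. The fold was turned into a percentile, the percent of the peaks of that list with a fold at or below it, so that 100 is the strongest peak. The lists held between 109143 and 127490 peaks and no read counts, so precision here rests on the number of peaks. The paper reports fewer mapped reads, and a lower mapped share, for both beige than for both white ATAC-seq libraries. It reports none for the brown libraries, and the part of depth in the results was not tested. With 2 libraries against 2, an exact permutation test allows no two-sided p below 0.333. The conditions are therefore described by the value of every library and by whether they overlap, beside the share of all genes or regions that do the same. As a check of the cell type, all 8 adipocyte genes listed (Adipoq, Plin1, Fabp4, Cidec, Lipe, Lpl, Pparg and Cebpa) had a promoter peak in all 6 libraries, against 64.7% of all protein-coding genes. So did 3 of 5 macrophage genes, 3 of 4 endothelial genes and 3 of 4 progenitor genes, with no peak in any library at Itgam and Cdh5, and their part in the results was not tested. Among genes with a peak, the median percentile over the libraries was 54.6 to 78.8 for adipocyte and 71.9 to 85.6 for endothelial genes. It was 61.4 to 76.5 for progenitor and 29.4 to 59.8 for macrophage genes. Endothelial genes stood above adipocyte genes in all 6 libraries, so strength does not set adipocytes apart.

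The sequences directly upstream of the main start sites are shown first, because they set the promoters of the family apart from each other. In mm10 each covers the 100 bases before the 5′-most start of its group, on the strand of the gene, with every CpG in capitals.
Nfia, main start group, chr4:97777508-97777607 (+): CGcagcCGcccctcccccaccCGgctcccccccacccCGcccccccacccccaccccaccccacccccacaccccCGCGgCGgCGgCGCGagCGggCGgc
Nfib, main start group, chr4:82505780-82505879 (-): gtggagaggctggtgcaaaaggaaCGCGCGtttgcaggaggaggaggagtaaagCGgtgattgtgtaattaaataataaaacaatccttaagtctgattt
Nfic, main start group, chr10:81427188-81427287 (-): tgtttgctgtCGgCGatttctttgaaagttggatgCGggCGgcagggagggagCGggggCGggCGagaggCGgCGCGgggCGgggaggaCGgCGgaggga
Nfic, start of Nfic-204, chr10:81431006-81431105 (-): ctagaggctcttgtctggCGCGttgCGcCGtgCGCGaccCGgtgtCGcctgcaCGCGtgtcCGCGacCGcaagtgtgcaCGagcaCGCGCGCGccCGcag
Nfix, 5′ start group, chr8:84800345-84800444 (-): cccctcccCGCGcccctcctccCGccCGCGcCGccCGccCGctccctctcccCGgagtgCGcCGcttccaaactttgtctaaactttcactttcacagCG
These stretches hold 12, 4, 13, 19 and 12 CpGs in that order. Over the 1 kb to each side of the start, the CpG count relative to that expected from C and G content was 0.878 at the main Nfia start, 0.816 at Nfib, 1.03 at the 5′ Nfix start and 0.790 at Nfic-204, but 0.467 at the main Nfic start. It was lower still, 0.334, at the start of Nfix-204, the principal Nfix transcript, whose upstream stretch is not shown. Of the 8412 groups of start sites over 0.6 in all protein-coding genes, 95.9% had a peak in all 6 libraries.

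The 4 genes carry 31 start sites, which fall into 16 groups when starts within 1 kb of each other are joined, numbered here from the 5′ end of each gene. A promoter peak is one that overlaps the 1 kb on either side of a start. Of the 16 groups 8 had a promoter peak in all 6 libraries, against 35.2% of the 48607 groups of all protein-coding genes, and 3 (18.8%) had none in any library, against 53.1%. The 3 without a peak are the starts of Nfia-207, Nfib-212 and Nfix-206. The other 5 groups had one in 1 to 5 libraries.

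Nfia (ENSMUSG00000028565.18, chr4:97772734-98118874, plus strand) had the strongest promoter of the family, but not at its main start. At Nfia-208, the 5′-most start (group 1), the percentiles were 83.8 and 84.9 in beige, 90.5 and 88.4 in white and 86.9 and 92.9 in brown, with the summit upstream of the start. Both beige values lay below both white and both brown values there. At the start shared by Nfia-201 to Nfia-205 (group 2), which includes the principal coding transcript, the percentiles were 15.9 and 27.0 in beige, 21.6 and 37.9 in white and 9.87 and 29.5 in brown. The 3 conditions overlap at this CpG-rich start, and its peaks stood low in every list by fold. By -log10 q they lay at percentiles of 45.9 to 70.5. Nfia-206, a noncoding transcript that starts 138299 bp into the gene (group 4), had 80.4 and 68.0 in beige, 92.2 and 65.1 in white and 50.6 and 57.0 in brown. Both brown libraries were below the other 4 there, an order not counted over the groups of all genes.

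Nfib (ENSMUSG00000008575.17, chr4:82290173-82705750, minus strand) was open at the start shared by 10 transcripts (group 2), 199971 bp from its annotated 5′ end. The percentiles were 56.1 and 40.4 in beige, 54.9 and 16.8 in white and 64.5 and 72.2 in brown. Both brown libraries ranked above the other 4, and white 2 ranked lowest. These values are those of a peak upstream of the starts (chr4:82506064-82506717), except in white 2, where it stood at 8.18. The white 2 value is that of the peak over the starts (chr4:82505180-82506003). That peak stood at 9.46 and 14.7 in beige, 45.3 and 16.8 in white and 27.1 and 8.72 in brown. There both white values lay above both beige values, and brown overlapped with both conditions. The distant 5′ start of Nfib-212 had no peak, and the noncoding Nfib-211 start had 1 in white 1 only, at a percentile of 13.0 and a -log10 q of 3.59.

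Nfic (ENSMUSG00000055053.18, chr10:81396186-81455635, minus strand) was the only member with a coding start open in 1 condition alone. The start of Nfic-201, Nfic-202 and Nfic-203 (group 3), the principal coding start, had a peak in both beige libraries and in neither white nor brown library. This peak lay at chr10:81427057-81427224 with a percentile of 4.91 in beige 1 and 7.08 in beige 2, and with a -log10 q of 10.7 and 14.7, well past the threshold of q < 0.05. It is a weak peak by fold and stood at percentiles of 48.6 and 54.6 by -log10 q, and the nearest peak of any white or brown library lay at least 1443 bp away. A 30-base stretch there is shown because it holds the AP-1 consensus TGANTCA, in capitals, 10 bases after the start of Nfic-201.
Nfic, main start, chr10:81427146-81427175 (-): cggctgcaaaaaTGACTCAgtaagttcggc

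The other Nfic starts were open in more libraries. At Nfic-205 (group 4), within the gene, the percentiles were 68.2 and 61.1 in beige, 63.5 and 2.96 in white and 75.0 and 73.4 in brown, so white 2 stood far below the other 5 libraries, with a -log10 q of 5.13 against 35.6 in white 1. At the CpG-rich Nfic-204 start (group 2) they were 22.3 and 17.8 in beige, 21.7 and 4.14 in white and 40.1 and 48.4 in brown. Brown was above the other 4 libraries at both starts by fold. Near the noncoding Nfic-206 start (group 5) each beige library had a weak peak of its own, at chr10:81401499-81401651 in beige 1 (9.37) and chr10:81401256-81401410 in beige 2 (9.62). These do not overlap, so no region there was open in both libraries, and the Nfic-207 start (group 1) had one in beige 1 only, at 13.0.

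Nfix (ENSMUSG00000001911.16, chr8:84699876-84800344, minus strand) had overlapping values in white and the other conditions at its coding starts. At the 5′ start of Nfix-201, Nfix-202 and Nfix-205 (group 1) the percentiles were 63.1 and 68.6 in beige, 42.9 and 71.0 in white and 60.5 and 55.6 in brown. Beige lay above brown, while white spanned both. At Nfix-203 and Nfix-204 (group 2) they were 28.9 and 21.8 in beige, 49.2 and 17.8 in white and 27.3 and 48.8 in brown, and the conditions overlap. At the start of Nfix-204 itself, the principal transcript, beige 1 had no peak. The percentiles at that start were 21.5 in beige 2, 49.2 and 10.0 in white and 22.0 and 44.4 in brown. At the noncoding Nfix-207 and Nfix-208 starts (group 4) they were 59.4 and 71.9 in beige, 37.2 and 51.0 in white and 50.2 in brown 1, with no peak in brown 2. The beige 2 value is that of another peak, with its summit upstream of the starts and not past them. At the Nfix-208 start beige 2 had 29.6, the lowest of the libraries with a peak there. The peak at 71.9 was also the strongest promoter peak of Nfix in beige 2.

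**Figure D1:**
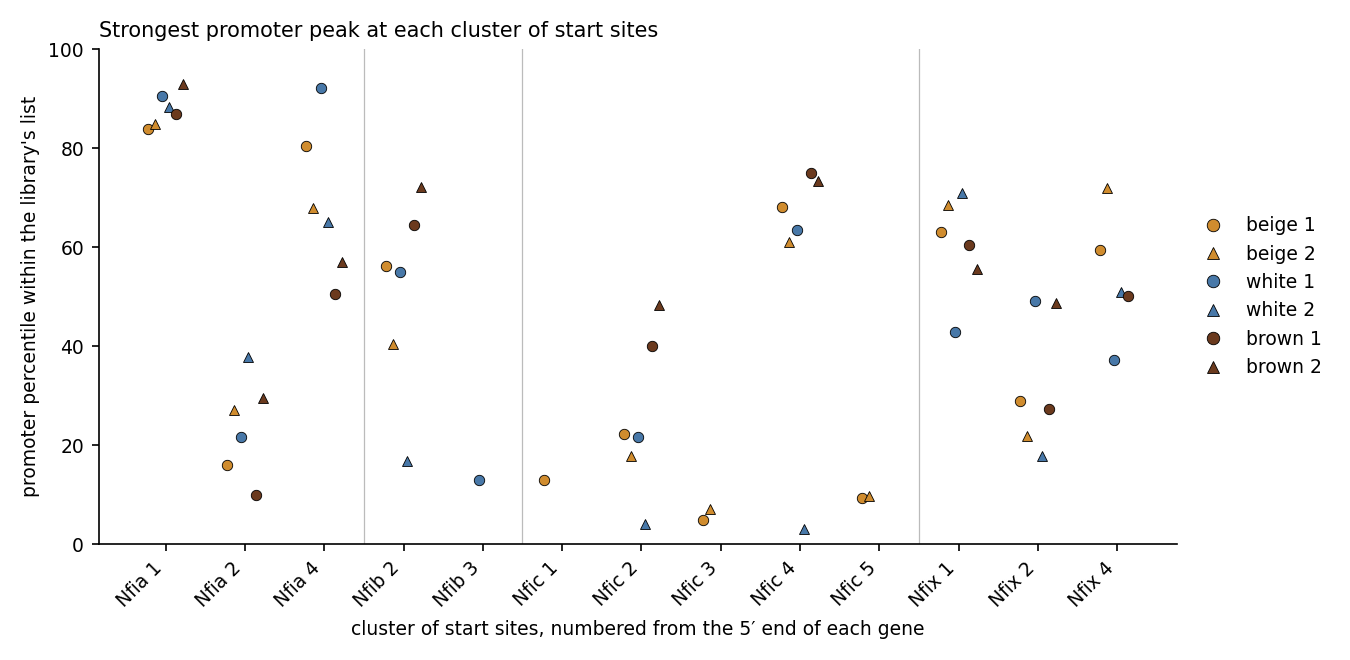
The y axis gives the percentile of the strongest promoter peak within its library's list, and the x axis the 13 groups of start sites with a peak in at least 1 library; circles are replicate 1 and triangles replicate 2, and a missing symbol means no peak. Nfic 3 and Nfic 5 have beige symbols only, those of Nfic 5 from separate peaks, and the white 2 triangle stands low at Nfib 2, Nfic 2 and Nfic 4.

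Taking the strongest promoter peak of each gene, Nfib, Nfic and Nfix ranked low among genes with an open promoter and Nfia near the middle. Over the 14192 genes (64.7%) with a promoter peak in all 6 libraries the median percentile was 85.9 to 90.6, depending on the library. Nfia stood at 83.8 to 92.9, Nfib at 16.8 to 72.2, Nfic at 4.14 to 75.0 and Nfix at 49.2 to 71.9. In the 6 libraries between 1.28% and 19.2% of these genes ranked at or below Nfib, 0.247% to 23.6% at or below Nfic, and 6.48% to 23.9% at or below Nfix, against 37.5% to 61.0% for Nfia. Ranked by -log10 q instead, Nfia stood higher, with 57.9% to 81.1% of genes at or below it, and the other 3 remained below the median gene in all 6 libraries.

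At this gene level both brown libraries ranked above both beige libraries for Nfia, Nfib and Nfic, 3 of 4 genes, where 32.8% of the 14192 genes did. Both brown ranked above both white for Nfib and Nfic, 2 of 4, where 34.3% did. Both beige ranked above both brown for Nfix, 1 of 4 (18.1% of all genes), and both white above both beige for Nfia, 1 of 4 (19.7%). No NFI gene had both beige above both white (28.8%) or both white above both brown (15.1%). Ranked by -log10 q, brown no longer lay above beige at any of the 3. Nfia then had 95.3 and 96.7 in brown, 95.1 and 97.2 in beige and 97.1 and 97.6 in white, so that white no longer lay above beige either. Nfib had 88.4 and 90.5 in brown against 88.9 and 83.0 in beige, and Nfic 89.0 and 87.3 against 87.9 and 85.6. Brown above white at Nfib and Nfic and beige above brown at Nfix held in that ranking. With 4 genes, these counts are a description, and brown above beige and brown above white were the most common orders over all genes as well.

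The density of regions lay above that of the median gene at all 4 genes, far above it at Nfic and Nfix and least so at Nfib. Including the 100 kb on either side, there were 17.8 regions per 100 kb at Nfia, 13.8 at Nfib, 24.3 at Nfic and 24.0 at Nfix, against a median of 11.5 over all protein-coding genes. These densities stand at percentiles 86.8, 65.2, 98.6 and 98.4 of all genes. The stretches of Nfic and Nfix, flanks included, hold 17 and 13 other protein-coding genes, and 19 and 12 of their regions lay at the promoter of another gene, whereas Nfia and Nfib each share their stretch with 1 other coding gene, E130114P18Rik and Zdhhc21. Of the 317 regions 167 were intronic, 25 lay at promoters of the NFI genes, 32 at promoters of other genes, 2 in exons, 39 in the upstream flanks and 52 in the downstream flanks.

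Within each gene, intron 2 held the largest number of regions of any intron of the principal transcript, except at Nfic. It had 42 regions in 173 kb at Nfia, 22 in 115 kb at Nfib and 13 in 43.8 kb at Nfix. Intron 2 is also the longest intron in each of these, with 24.3, 19.2 and 29.7 regions per 100 kb. Introns 8 and 10 of Nfib (24.9 and 19.8) and introns 10 and 6 of Nfix (39.3 and 38.2) were denser, on 1 or 2 regions each. In these genes intron 2 follows the exon that encodes most of the DNA-binding domain. At Nfic introns 1 and 2 had 3 regions each. A further 34 intronic regions of Nfib lay outside its principal transcript, all in the long stretch between the Nfib-212 start and the main start.

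**Figure D2:**
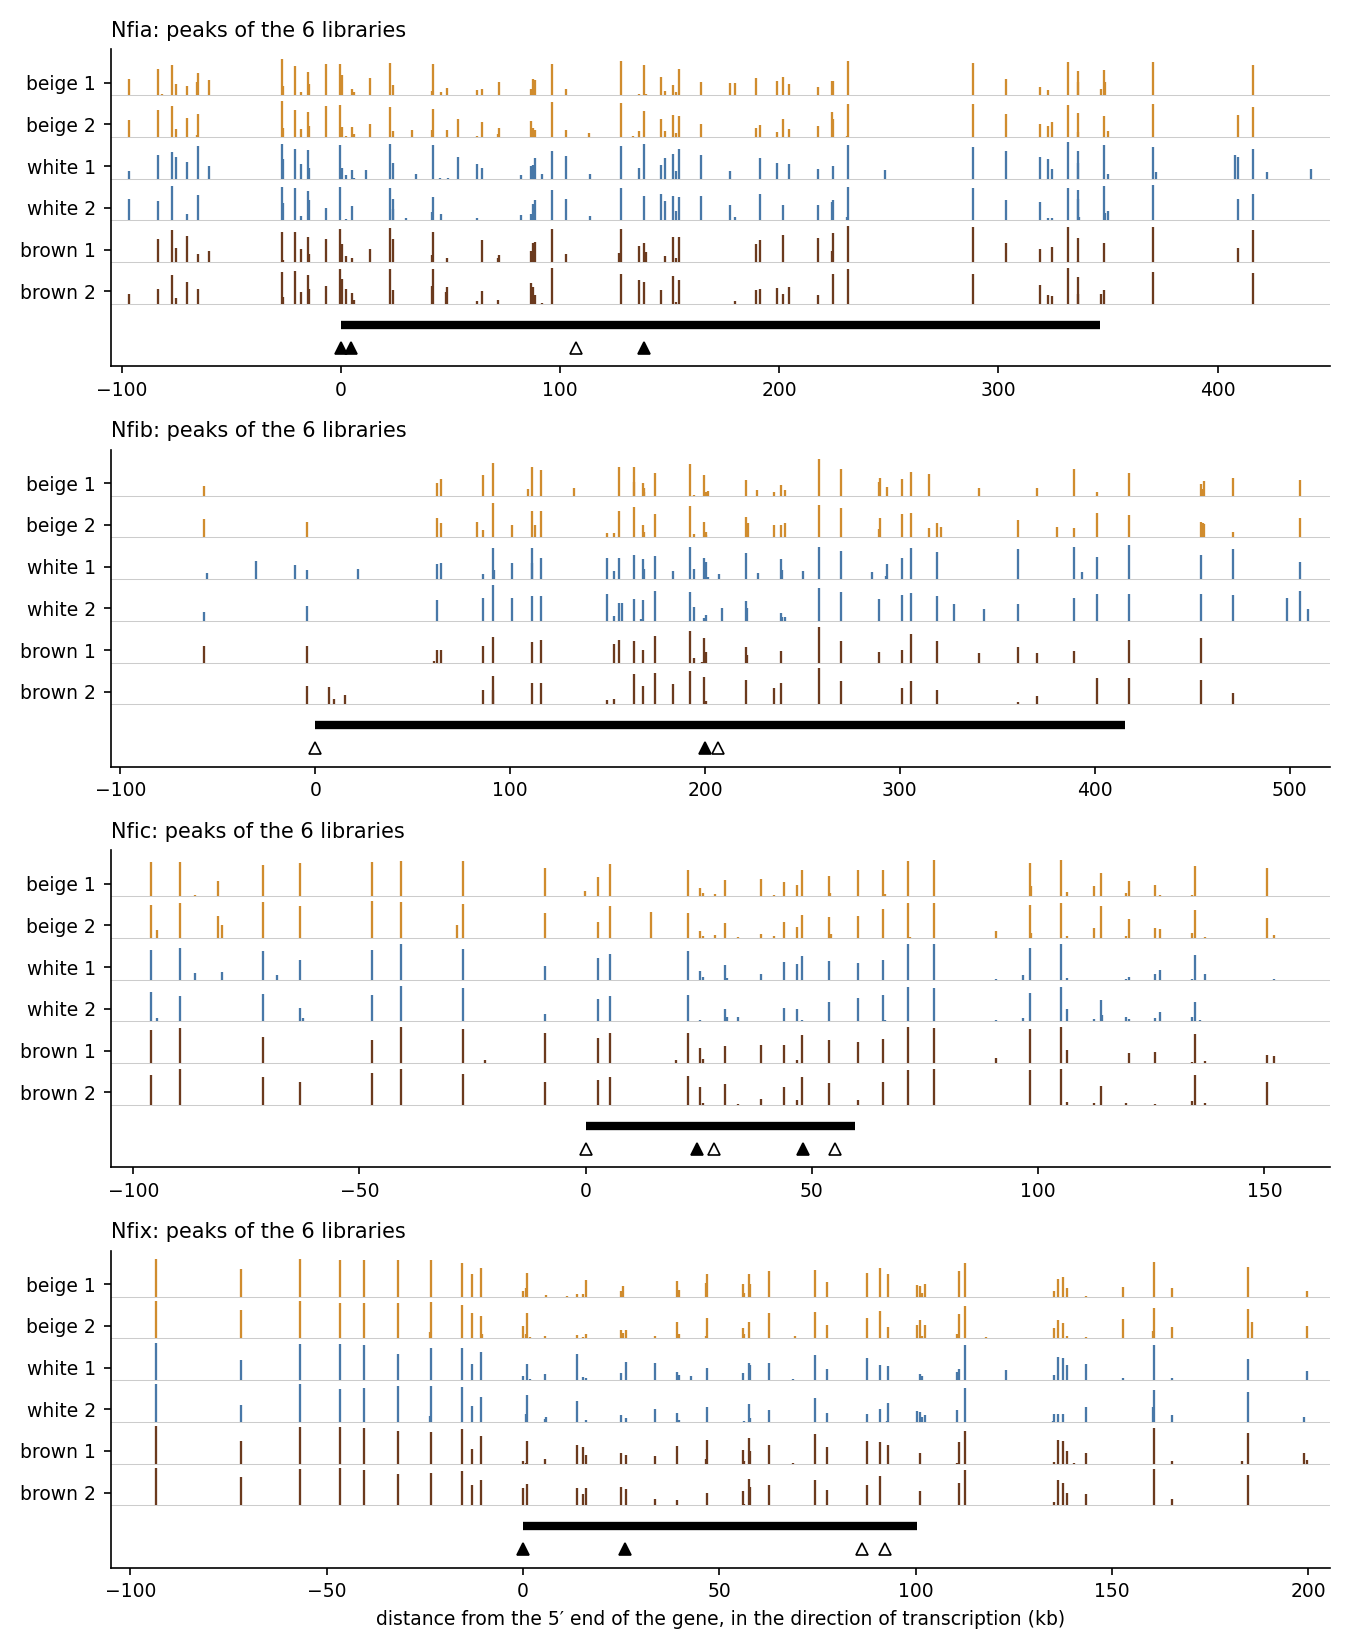
Each tick is a region with a peak in that library, placed at its distance from the 5′ end of the gene in kb along the direction of transcription, and its height is the percentile within the library's list. The black bar is the gene, filled triangles are groups of start sites with a peak in all 6 libraries and open triangles the other groups; ticks are dense over the front part of Nfia and sparse around the 5′ end of Nfib.

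Fewer peaks were called around these genes in brown than in inguinal cells. The number was 251.5 ± 17.7 (SD, n = 2) in beige, 235.0 ± 9.90 in white and 201.0 ± 7.07 in brown, and brown did not overlap with the others. The brown lists are also the shortest, and as a share of the list the values were 0.201% and 0.207% in beige, 0.201% and 0.191% in white and 0.181% and 0.180% in brown. Nfib showed the widest gap, with 50 and 56 peaks in beige, 57 and 48 in white and 38 and 38 in brown. As a share of the list both brown libraries lay below the other 4 at Nfib and Nfic, 2 of 4 genes, against 9.19% of the 21110 genes with any peak in the same stretch. At no NFI gene did both brown shares lie above the other 4, which 7.76% of genes showed. At Nfic the gap was narrow, with 0.0386% and 0.0394% in brown and 0.0398% to 0.0477% in the others. This comparison of shares was chosen after the counts had been seen.

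**Figure D3:**
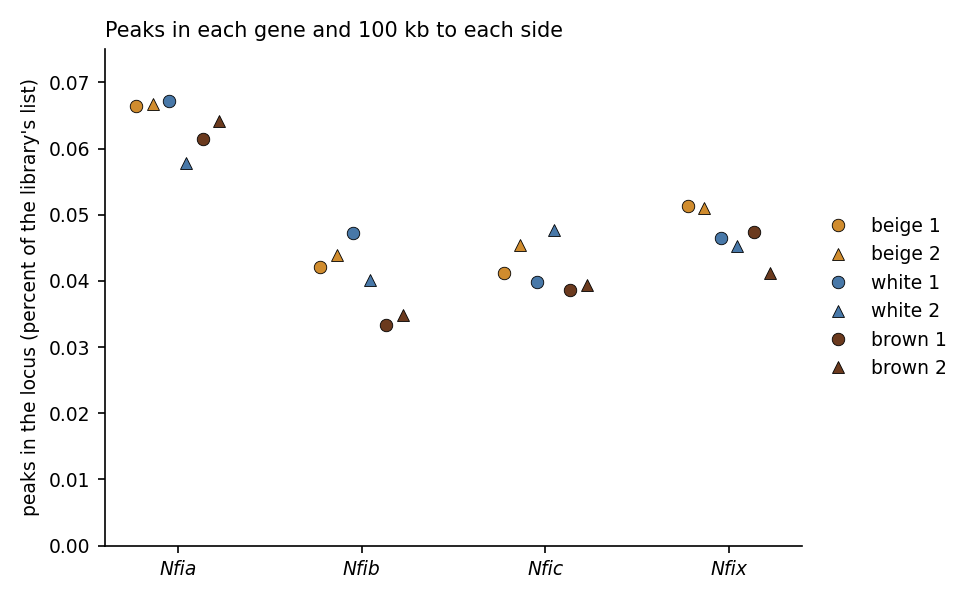
The y axis gives the peaks in each gene and the 100 kb on either side as a percent of the library's list, with 1 symbol per library. At Nfib the brown symbols lie at 0.0334% and 0.0348%, and the other 4 between 0.0402% and 0.0473%.

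Of the 317 regions 117 (36.9%) were open in all 6 libraries, against 30.2% of all regions, and 80 (25.2%) in 1 library only, against 37.2%. The share open in all 6 was 22.4% at Nfib (19 of 85), below the share of all regions, and 37.1%, 44.4% and 47.2% at Nfia, Nfic and Nfix. Regions that followed condition were few. Both beige and both white libraries but no brown library had a peak in 7 (2.21%, against 1.16% of all regions), and both beige and both brown but no white library in 4 (1.26%, against 1.25%). Peaks of both beige libraries alone made up 11 (3.47%, against 1.94%), and of both white libraries alone 4 (1.26%, against 1.23%). No region was open in both brown libraries alone (0.877% of all regions) or in white and brown without beige (0.243%), and a count of 0 in 317 allows a share of up to 0.946%, for counting error only.

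**Figure D4:**
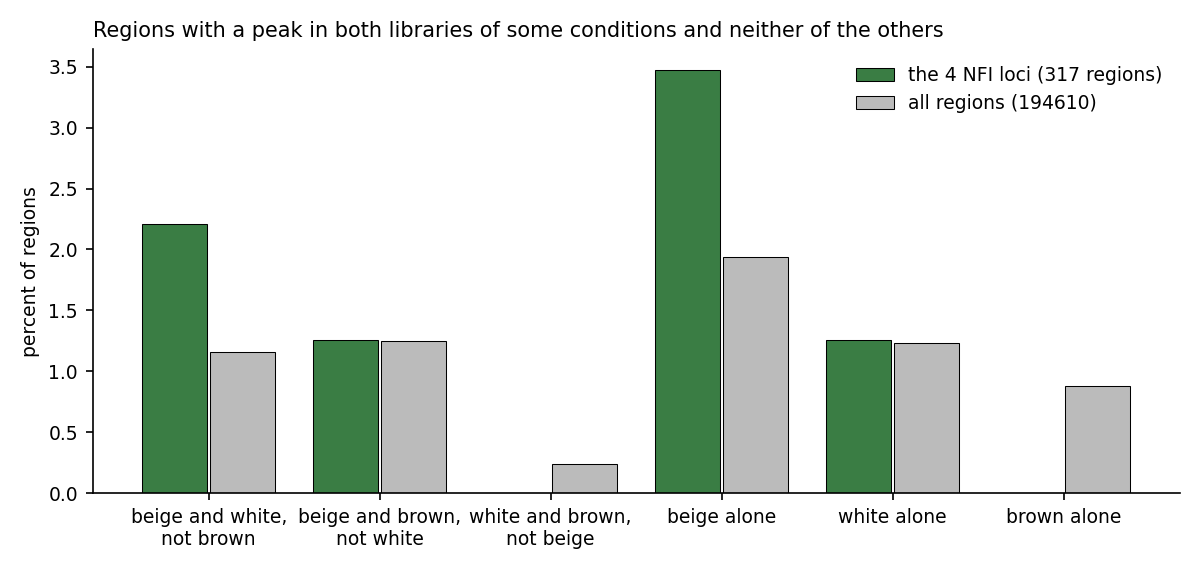
Bars give the percent of regions with a peak in both libraries of the named conditions and in no library of the others, for the 4 NFI genes and for all regions. The beige-alone bar stands at 3.47% against 1.94% and the bar for beige and white without brown at 2.21% against 1.16%, and the NFI genes have no region in 2 of the 6 classes.

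Among the named regions of beige alone, the Nfic main start, a region in Nfib intron 2 and one upstream of Nfic were clear of other peaks. The Nfib region at chr4:82390665-82390893 had percentiles of 58.0 and 24.2 and a -log10 q of 12.5 and 6.32, and its nearest white or brown peak was at least 4077 bp away. The Nfic region at chr10:81536805-81537021, within Gna11 and 81274 bp upstream of the 5′ end of Nfic, had percentiles of 40.3 and 58.8 and a -log10 q of 8.81 and 18.1, with the nearest white peak 713 bp away. Others bordered a peak that the white and brown lists also hold. The beige-alone peak at the Nfib main promoter (chr4:82504833-82505120) lay 60 to 92 bp from white and brown peaks, and that at the Nfix-203 promoter (chr8:84774551-84774919) 87 to 136 bp.

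Of the regions shared by the inguinal cells and missing in brown, the Nfia region in intron 2 (chr4:97937004-97937384) had percentiles of 36.1 and 35.3 in beige and 62.8 and 65.1 in white, and the nearest brown peak was 9436 bp away. The Nfib region in the downstream flank (chr4:82200112-82200671) had 41.0 and 52.6 in beige and 45.2 and 79.8 in white, and the nearest brown peak was 13764 bp away. The strongest region shared by beige and brown without white lay in Pip5k1c, downstream of Nfic (chr10:81304891-81305284), with 74.1 and 51.6 in beige and 22.2 and 59.6 in brown and a -log10 q of 8.54 to 30.2. It has no white peak within 1310 bp. Of the 4 regions of white alone, the intronic Nfia region at chr4:97854884-97855150 was clear of other peaks by at least 4051 bp, at percentiles of 10.7 and 13.6.

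Among the regions open in all 6 libraries, those in which beige and white did not overlap were more often higher in white at Nfia and Nfib and more often higher in beige at Nfic and Nfix. Both white percentiles lay above both beige percentiles in 14 of 36 Nfia regions (38.9%) and 7 of 19 Nfib regions (36.8%), but in 3 of 28 Nfic regions (10.7%) and 2 of 34 Nfix regions (5.88%), against 22.1% of the 58720 regions open in all 6 libraries. Both beige percentiles lay above both white percentiles in 5 Nfia regions (13.9%), 2 Nfib regions (10.5%), 11 Nfic regions (39.3%) and 14 Nfix regions (41.2%), against 25.8%. Ranked by -log10 q the order at Nfib was lost, with 5 of its regions each way (26.3%), while Nfia had 9 with white above beige and 5 with beige above white, Nfic 2 and 16, and Nfix 2 and 16. The more frequent order by fold at each gene was the same among regions over 1 kb from any start of a coding gene and with any of the 4 libraries left out, and all of these alternatives were chosen after these counts had been seen. Without promoter regions, white above beige held for 13 of 32 at Nfia and 6 of 17 at Nfib, and beige above white for 7 of 15 at Nfic and 11 of 23 at Nfix.

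Base composition also differed between these genes. The 201-base windows of these regions had a median GC content of 50.5% at Nfia and 48.8% at Nfib, 62.2% at Nfic and 60.2% at Nfix, and 52.2% over all regions open in all 6. Over all such regions at a GC content of 40% to 50%, beige ranked above white in 21.8% and white above beige in 24.9%. These shares were 27.7% and 21.3% at 50% to 60%, where the Nfia median lies, and 29.4% and 19.0% at 60% or more. Of the 36 Nfia regions 1 lay below 40%, 17 at 40% to 50%, 13 at 50% to 60% and 5 at 60% or more. The part of GC content in the order at the NFI genes was not tested.

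Over the 117 regions of the 4 genes together, beige ranked above white in 32 (27.4%) and white above beige in 26 (22.2%). Brown ranked above beige in 42 (35.9%, against 24.0% of all regions) and above white in 39 (33.3%, against 22.7%). Beige ranked above brown in 27 (23.1%, against 27.3%) and white above brown in 21 (17.9%, against 24.0%). Brown above white was most frequent at Nfic, in 15 of 28 regions (53.6%), and at Nfix, in 14 of 34 (41.2%), and least at Nfib, in 2 of 19 (10.5%). Brown above beige was seen in 38.9% of regions at Nfia, 39.3% at Nfic and 38.2% at Nfix, but in 21.1% at Nfib. The orders with brown were taken by fold only. The NFI regions were weaker than most, with a median percentile of 60.0 to 63.8 over the libraries against 72.0 to 75.2 for all regions open in all 6.

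The strongest regions away from start sites were open in every library. For each gene the 3 of highest mean percentile over the 6 libraries were taken, among regions over 1 kb from the start of any coding gene. At Nfia they were a region in the last intron (chr4:98104031-98104725), with 88.8 and 84.8 in beige, 96.8 and 87.1 in white and 94.1 and 96.0 in brown, one in intron 4 (chr4:98003750-98004860) and one 26719 bp upstream (chr4:97745661-97746150). The upstream region was ordered by condition, with 97.0 and 94.4 in beige, 92.6 and 89.8 in white and 80.0 and 84.7 in brown. Of all regions open in all 6 libraries, 25.8% had beige above white and 24.0% had white above brown. At Nfib the strongest lay in intron 2 (chr4:82447021-82447812), with 96.3 and 86.3 in beige, 84.5 and 86.6 in white and 94.6 and 97.2 in brown. A second Nfib region 91381 bp from the 5′ end (chr4:82614205-82614504) had 86.9 and 90.9 in beige, 81.7 and 94.1 in white and 66.8 and 74.4 in brown, with both brown libraries below the other 4. How often all regions show that order, or the full order of the upstream Nfia region, was not counted.

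At Nfic all 3 lay upstream of the gene. That within Gna15 (chr10:81502685-81503129) had 89.9 and 97.1 in beige, 80.0 and 71.0 in white and 62.4 and 85.5 in brown, and beige was above the other 4. At the region 71317 bp upstream (chr10:81526699-81527086) beige was likewise highest, with 83.2 and 94.2 against 70.4 to 75.1 in the others. At Nfix the strongest lay 23530 bp upstream of the 5′ end (chr8:84823594-84824026), with 98.6 and 97.9 in beige, 84.1 and 94.6 in white and 84.8 and 84.9 in brown, and beige again stood highest. Beige was thus above the other 4 libraries at 4 of these 12 regions, an order seen in 12 (10.3%) of the 117 NFI regions open in all 6 libraries and in 13.1% of all such regions.

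**Figure D5:**
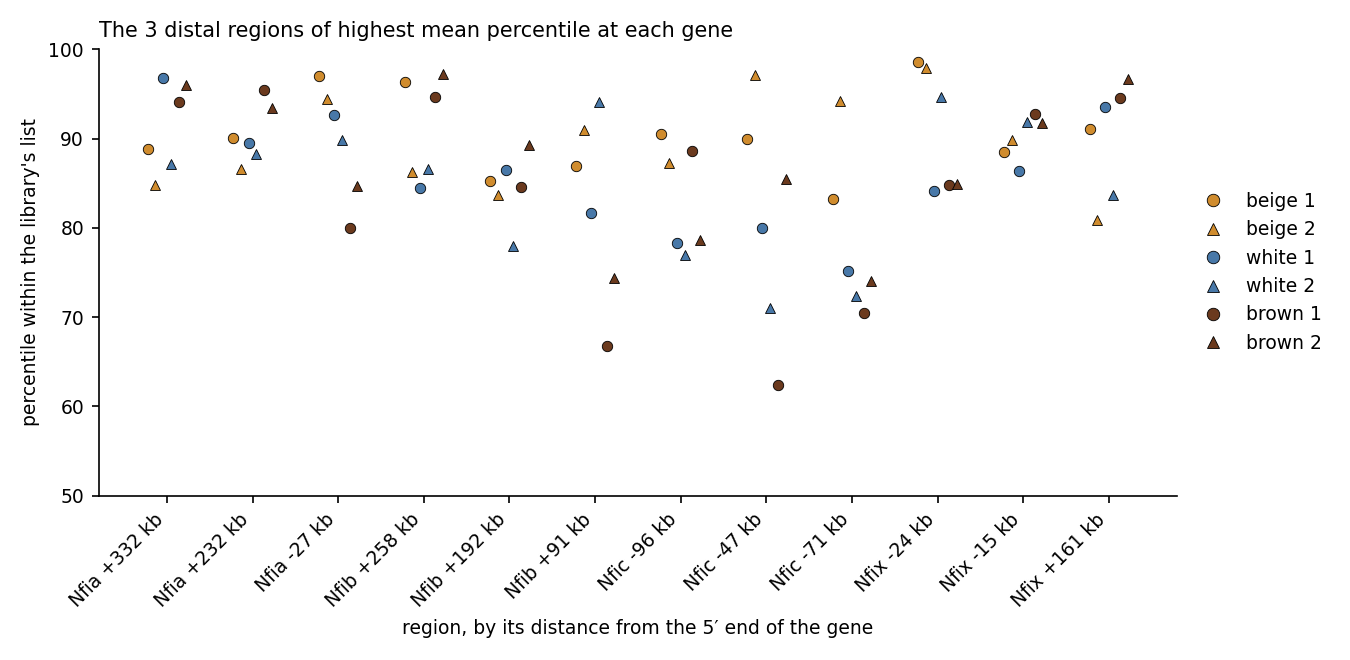
The y axis, which starts at 50, gives the percentile within the library's list for the 3 strongest regions over 1 kb from any coding start at each gene, named on the x axis by their distance from the 5′ end of the gene; negative distances are upstream. The beige symbols stand highest at Nfia -27 kb, Nfic -47 kb, Nfic -71 kb and Nfix -24 kb, and the brown symbols lowest at Nfia -27 kb and Nfib +91 kb.

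The sequence under these 12 regions is shown because 6 of them held the core of the CTCF site, searched as CCNCNAGNNGG within 100 bp of the summit; all consensus letters were searched on both strands. CTCF is a zinc finger protein that binds insulators and anchors chromatin loops. The consensus was chosen after the sequences of the regions had been seen, so its share among these 12 is not independent of that choice. The background shares given below were not matched for GC content. Each line gives 30 bases on the strand of the match, with the match in capitals.
Nfib, intronic, chr4:82513304-82513333 (+): ggggaggagCCACGAGAGGGcgggacctgt
Nfib, intronic, chr4:82614361-82614390 (-): aacaaattgCCACTAGATGGcactgcttgt
Nfic, upstream, in the last exon of Gna15, chr10:81502809-81502838 (+): cacgcgcggCCACCAGGGGGaggtatgtcc
Nfix, upstream, chr8:84823850-84823879 (-): gtgtagcggCCGCTAGATGGcgagcgcgcc
Nfix, upstream, in the last exon of Dand5, chr8:84815722-84815751 (-): cgcttttagCCACTAGGTGGcaccgcgtcc
Nfix, downstream, in the last exon of Cacna1a, chr8:84639511-84639540 (+): ccgcgcgagCCGCCAGGGGGcgcgcacgat
These 6 of 12 stand beside 13.2% of the 13298 regions over 1 kb from a coding start that were open in all 6 libraries at or above the lowest mean percentile of the 12, which was 78.2. Among the 87 NFI regions away from starts and open in all 6 the share was 10.3% (9 regions), against 10.3% of the 42572 such regions. Over all 317 regions it was 6.94%, against 6.45% of all regions. A match is a description of the letters and not a bound site.

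The AP-1 consensus was rarer over the 4 NFI genes together than elsewhere, most clearly at Nfix. TGANTCA, bound by FOS and JUN proteins, was in 43 of 317 windows (13.6%), against 21.2% of all regions. By gene it was in 19 of 97 windows at Nfia, close to the share of all regions, 12 of 85 at Nfib, 8 of 63 at Nfic and 4 of 72 at Nfix. Away from starts and in all 6 libraries it was in 16 of 87 (18.4%), against 33.8%, and in 0 of the 12 strongest, against 38.7% of equally strong regions. A count of 0 in 12 allows a share of up to 25.0%. The backgrounds were not matched for GC content. Among regions open in all 6 libraries its median was 62.2% at Nfic and 60.2% at Nfix, against 52.2% over all such regions. At Nfia and Nfib it was 50.5% and 48.8%, and the part of GC content in the AP-1 share was not tested. The other consensus sequences searched were in few windows or near their background. The E-box CAGCTG was in 41 (12.9%, against 15.4%), the EBF letters TCCCNNGGGA in 4 (1.26%, against 1.40%) and the TEAD letters ACATTCCA in 2 (0.631%, against 1.56%). The cAMP response element TGACGTCA was in 4 (1.26%, against 0.649%), and the letters TTGCGCAA of C/EBP proteins (0.137% of all regions), AGGTCANAGGTCA of PPARG (0.0560%) and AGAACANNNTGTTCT of the glucocorticoid receptor (0.0134%) were in none.

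Over the 4 genes together, a single arm of the site that NFI proteins themselves bind was about as frequent as over all regions. TTGGCA, a single arm of the palindrome with its next base, was in 47 of 317 windows (14.8%), against 15.5%. By gene it was in 15 of 97 windows at Nfia, 18 of 85 at Nfib, 5 of 63 at Nfic and 9 of 72 at Nfix. The full site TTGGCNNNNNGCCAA was in 0 windows, against 0.0678% of all regions, and 0 of 317 allows up to 0.946%. A shorter full site, TGGCNNNNNGCCA, chosen after that count had been seen, was in 4 (1.26%, against 1.48%), 1 at each gene. They are shown on the strand of the gene, with the match in capitals.
Nfia, downstream flank, chr4:98215336-98215365 (+): cggcacccTGGCCCATTGCCAggccccatg
Nfib, intronic, chr4:82690414-82690443 (-): ctgctcccTGGCTTCCTGCCAggggagcag
Nfic, intronic, chr10:81435647-81435676 (-): ttcctaccTGGCACCTGGCCAgctggactc
Nfix, intron 2, chr8:84744178-84744207 (-): tggcccacTGGCCAGCTGCCAactgcattc
The regions at Nfia, Nfib and Nfic had a peak in 1 library each, white 1, brown 2 and brown 1. The Nfix region had a peak in 5 libraries, at 33.4 and 28.6 in beige, 18.6 in white 1 and 34.7 and 36.8 in brown, with none in white 2.

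Genes that act beside NFI proteins in adipocytes were open as well. Of 15 such genes 14 had a promoter peak in all 6 libraries, against 64.7% of all protein-coding genes. Pparg, the master regulator of adipogenesis, stood at 76.8 and 71.5 in beige, 83.7 and 82.4 in white and 75.5 and 82.6 in brown. Ebf2, which marks brown and beige precursors, stood at 83.9 and 82.3, 91.3 and 68.1, and 86.2 and 91.9 in the same order. Prdm16, a coregulator of the brown fat programme, stood at 63.4 and 66.0, 62.4 and 47.1, and 62.9 and 64.2. Ucp1, the uncoupling protein of brown fat, was the exception, with a promoter peak in the brown libraries alone, at 9.12 and 4.23.

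The genes whose promoter percentiles were nearest to those of a member, by the mean absolute difference over the 6 libraries among the 14192 genes, were Ulk2 (1.29), Gucd1 (1.38) and Snrpd3 (1.38) for Nfia. They were Cfl1 (3.97), Cntnap1 (4.56) and Id3 (4.82) for Nfib, and C1ql1 (4.93), Dot1l (5.32) and Sox8 (5.91) for Nfic. For Nfix they were Lrrc10b (2.97), Klf14 (3.00) and Tmem181a (3.09).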

How the data were processed

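Peaks of open chromatin from 6 ATAC-seq libraries (3 conditions with 2 libraries each) were analysed. The authors aligned reads to mm10 with BWA and called peaks in each library with MACS2 at q < 0.05. Each deposited line is a summit, with its fold (a ratio over the local background of that library), a deposited -log10 q and a summit position. Summits sharing an interval were counted once, at the highest -log10 q. Fold was ranked within a list only, since the lists hold no counts.

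Intervals were merged across libraries at 1 bp of overlap. Start sites came from GENCODE M21, whose build is that of the lists, and sequence from the RefSeq copy of mm10 (GRCm38). Python 3.11.15 with numpy 2.4.6, pandas 2.3.3, scipy 1.17.1 and matplotlib 3.10.9 was used, and the merging was tested on simulated data. No test was run between conditions.

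Named regions were, per gene, up to 3 of highest minimum -log10 q in each class and the 3 of highest mean percentile away from coding starts. The members, gene lists and rules were chosen with earlier results of these data known. Alternatives covered the q threshold, equally long lists, windows, flanks, ranking and each library left out.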

Additional observations from a re-analysis of the deposited data

How the results depend on the processing

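No paired analysis was possible because the results come from no test that a block could enter, and the labels tie the replicate numbers to no shared animal, day or batch. Of the recomputed main counts 94 stayed within 1.5 times or 1 SD of the value given and 25 did not, and of the other recomputed values 149 did and 27 did not. Ranking by -log10 q moved every mean promoter percentile by over 1 SD except that of Nfic in white, to 96.1, 97.3 and 96.0 (beige, white, brown) at Nfia, 85.9, 68.0 and 89.5 at Nfib, 86.8, 60.8 and 88.1 at Nfic and 83.9, 80.7 and 71.7 at Nfix. Brown above beige at Nfia (89.9 and 84.3 by fold) turned in that ranking, and Nfix white above brown (60.1 and 58.1) became 56.1 and 57.2 with equally long lists. The single arm TTGGCA, below its background as given (14.8%, 15.5%), lay above it within 50 bp of the summit (10.1%, 8.82%). Regions of beige and white without brown fell from above their background (2.21%, 1.16%) to below it at q < 0.00001 (1.16%, 1.34%). Regions of white and brown without beige (0%, 0.243%) rose above it with equally long lists (0.678%, 0.365%) and without beige 2 (2.92%, 0.956%). Beige and brown without white and white alone, near their background as given, fell on either side of it. With coding transcripts of GENCODE's basic set only, 5 of 7 groups of start sites had a peak in all 6 libraries. Regions of beige and white without brown numbered 3 at q < 0.00001, 4 with equally long lists, 4 with flanks of 50 kb and 3 inside the genes only, against 7. Equally long lists gave 2 regions of brown alone and 2 of white and brown without beige, against 0 each. Inside the genes only there were 64 regions open in all 6 libraries and 6 of beige alone, since fewer regions remain. Leaving out each library in turn, which by construction lets more regions into a class, gave 8 to 17 regions of beige and white without brown, 5 to 12 of beige and brown without white, 0 to 9 of white and brown without beige, 12 to 30 of beige alone, 4 to 31 of white alone, 0 to 7 of brown alone, and 118 to 128 open in all. The beige-alone class rose to 30 without beige 1 (9.58%, against 8.86% of all regions) and to 23 without beige 2 (7.47%, 7.03%), where it was 3.47% against 1.94% as given, white alone to 31 without white 2 (10.1%, 10.3%) and to 20 without white 1 (6.73%, 8.45%), and beige and white without brown to 17 without brown 1 and to 16 without brown 2. Groups of start sites open in all libraries numbered 8 or 9. The lists give no depth, and weak peaks near the threshold limit every count of regions missing from a condition.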
